A study of Mus musculus with 24 samples.

Results

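The 10 genes described here encode heat shock proteins and chaperones of the cytosol, the endoplasmic reticulum and the mitochondrion: Hspa8, Hspa5, Hspa1a, Hsp90aa1, Hsp90ab1, Hsph1, Dnaja1, Dnajb1, Hspd1 and Hspe1. They were chosen by name from the 55254 genes of the 2 deposited count tables. All 10 were found in both tables and passed the filter on low counts in NeuN+ and NeuN-. The study counted nuclear RNA of the mouse hippocampus after sorting nuclei by the neuronal marker NeuN, which gives NeuN+ nuclei of neurons and NeuN- nuclei that are mostly glial. The mice were males of 6 months on the C57BL/6N background. They were wild type (WT), Mutyh-/-, Ogg1-/- or deficient in both genes (DKO), with 3 libraries in each of the 8 groups of genotype and cell type and 24 in all. Ogg1 is the DNA glycosylase that removes 8-oxoguanine, and Mutyh removes adenine paired with it. Both losses are constitutive and therefore present in neurons and glia alike. Nuclei were fixed with formaldehyde and pooled from several animals of a genotype, and the methods speak of independent biological replicates in general. The labels do not say which animals went into which library, so the p-values here measure the spread between these libraries, which may be technical.

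Library totals ran from 56563586 to 96192142 counts, with a median of 70434612. The gates were checked with marker genes of the cell types. In WT, 7 of 8 neuronal markers were higher in NeuN+, all but Prox1, and the 5 oligodendrocyte, 6 astrocyte and 5 microglial markers were all higher in NeuN-. The counts cover whole genes and so cannot show the loss of a part of a gene. Mutyh RNA was higher than in WT in libraries labelled Mutyh-/- (log2 fold change 3.15 in NeuN+ and 1.85 in NeuN-) and DKO (2.99 and 1.61). Ogg1 RNA had log2 fold changes of 0.05 and 0.02 in libraries labelled Ogg1-/- (edgeR adjusted p = 0.916 and 0.97). Genotypes below are those of the labels, so a direction given for Ogg1-/- is that of the libraries labelled Ogg1-/-. NeuN+ and NeuN- libraries ran on different lanes, so a difference between the cell types and one between lanes cannot be told apart. In such bulk samples, fewer cells of a type and less RNA per cell cannot be told apart either.

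Chaperones bind proteins that are not yet folded or have lost their fold. HSP70 proteins hold short hydrophobic stretches in a cycle driven by ATP, J-domain proteins such as Dnaja1 and Dnajb1 bring them their substrates and start the cycle, and exchange factors such as Hsph1 end it. HSP90 proteins act later, on kinases, steroid receptors and other clients that are almost folded. Cells keep Hspa8 and Hsp90ab1 as constitutive forms, while Hspa1a is the classical inducible HSP70, switched on by the transcription factor HSF1 when unfolded proteins build up in the cytosol. Hspa5, also known as BiP, is the HSP70 of the endoplasmic reticulum and a target of its unfolded protein response. Hspd1 and Hspe1 are HSP60 and HSP10, the barrel and the lid of the mitochondrial chaperonin.

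In the GENCODE vM21 annotation of GRCm38, all 10 are protein-coding genes, and the counts are taken over them as whole genes. The cytosolic HSP70 genes are Hspa8 at chr9:40800984-40810087 on the plus strand and Hspa1a at chr17:34969190-34972156 on the minus strand. The exchange factor Hsph1 lies at chr5:149614287-149636376 on the minus strand. The J-domain genes are Dnaja1 at chr4:40722150-40737149 and Dnajb1 at chr8:83608193-83612653, both on the plus strand. The HSP90 genes are Hsp90aa1 at chr12:110690605-110702728 and Hsp90ab1 at chr17:45567775-45573271, both on the minus strand. Hspa5 lies at chr2:34771970-34777547 on the plus strand. Hspd1 at chr1:55077835-55088243 on the minus strand and Hspe1 at chr1:55088132-55091307 on the plus strand are transcribed away from each other and overlap at their 5′ ends. Hspa1a overlaps the gene model Gm20481 on the opposite strand, Dnaja1 overlaps Smu1 and the noncoding Gm6297 on the opposite strand, and Hspa8 holds 3 small nucleolar RNA genes. Whether the counting used strand is not given in the sources used here, so reads of such overlapping partners may not have been told apart.

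The start regions of the members are shown because HSF1 has a short recognition sequence, the heat shock element, and Hspa5 carries that of the unfolded protein response. Sequences are from RefSeq on GRCm38.p6, in windows of 250 bases before to 50 bases after a start. Entries were found for 7 of the 10 members, in 12 windows, and not for Hspa8, Hsp90aa1 and Hsp90ab1. Hspa1a and its neighbour Hspa1b are shown first, each as the 150 bases before its start, at chr17:34972157-34972306 and chr17:34959239-34959388 on the minus strand. Capitals mark the core GAANNTTC and a CCAAT box, which is read here on the other strand.
Hspa1a: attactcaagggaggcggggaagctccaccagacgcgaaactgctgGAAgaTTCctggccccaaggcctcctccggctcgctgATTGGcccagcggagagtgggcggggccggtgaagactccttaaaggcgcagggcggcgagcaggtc
Hspa1b: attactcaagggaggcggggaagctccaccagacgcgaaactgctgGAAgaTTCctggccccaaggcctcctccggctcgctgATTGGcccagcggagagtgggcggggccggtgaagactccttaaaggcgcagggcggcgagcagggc

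The 2 stretches differed at 1 of 150 bases. The other sites are given as 30 bases each. The site shared by windows of Hspd1 and Hspe1 lies at chr1:55088053-55088082, inside the annotated Hspd1 gene, and is written on the strand of Hspe1. That of Hsph1 lies at chr5:149636287-149636316 on the minus strand just after the start, and that of Dnaja1 at chr4:40722333-40722362. Capitals mark the alternating heat shock units. The site of Hspa5 at chr2:34772019-34772048 holds the ER stress element, whose fixed ends are in capitals.
Hspd1 and Hspe1: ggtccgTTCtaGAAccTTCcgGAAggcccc
Hsph1: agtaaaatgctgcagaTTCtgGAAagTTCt
Dnaja1: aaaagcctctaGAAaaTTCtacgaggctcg
Hspa5: acttcaCCAATcggaggcctCCACGacggg

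The cores GAANNTTC and TTCNNGAA read the same on both strands, and 1 or both were found in 6 of the 12 member windows, which belong to 5 genes. Neither core was found in the windows of Dnajb1 and Hspa5, or in the other windows of Dnaja1 and Hspd1. Of all 32851 windows of this length in the table, 15.1% held at least 1 of them. A run of 3 alternating units, which contains both cores, was found at Hsph1 and at the site that Hspd1 and Hspe1 share, and in 0.603% of all windows. The ER stress element was found in the Hspa5 window and in 0.119% of all windows. CCAAT on either strand was found in 8 of the 12 windows and in 37.4% of all, and TATAAA in none of the 12 and in 13.6% of all. The 2 windows of Hsph1 overlap, and windows of Hspd1 and Hspe1 overlap as well, so windows are not independent. These matches describe the sequence and are not evidence of binding.

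Per exon length, both HSP90 genes and the constitutive HSP70 gene Hspa8 had the highest levels in WT, in both cell types. Hsp90ab1 stood first, at 84.7 ± 8.94 RPKM (counts scaled to the library total and to the length of the union of exons, SD, n = 3) in NeuN+ and 67.9 ± 8.42 in NeuN-. Hsp90aa1 followed at 49.7 ± 4.08 and 42.4 ± 6.22 RPKM and Hspa8 at 48.7 ± 4.95 and 37.6 ± 7.24 RPKM. The ranges of Hsp90aa1 and Hspa8 overlapped in both cell types, so their order is not resolved. After a gap came Hsph1 (9.26 ± 1.38 RPKM), Hspa5 (7.10 ± 0.659), Hspd1 (6.86 ± 0.168), Dnaja1 (5.02 ± 0.117) and Hspe1 (4.69 ± 0.674) in NeuN+. Of these neighbours, Hspa5 and Hspd1 overlapped, as did Dnaja1 and Hspe1. In NeuN- the order of this middle group was Hspa5 (8.61 ± 1.18 RPKM), Hspd1 (5.90 ± 0.767), Hsph1 (5.43 ± 1.56), Hspe1 (3.88 ± 0.510) and Dnaja1 (3.35 ± 0.565), and the last 4 each overlapped the next. Dnajb1 and the inducible Hspa1a were lowest, at 1.63 ± 0.277 and 1.59 ± 0.232 RPKM in NeuN+ and 1.85 ± 0.478 and 1.17 ± 0.546 RPKM in NeuN-, with overlapping ranges.

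**Figure D1:**
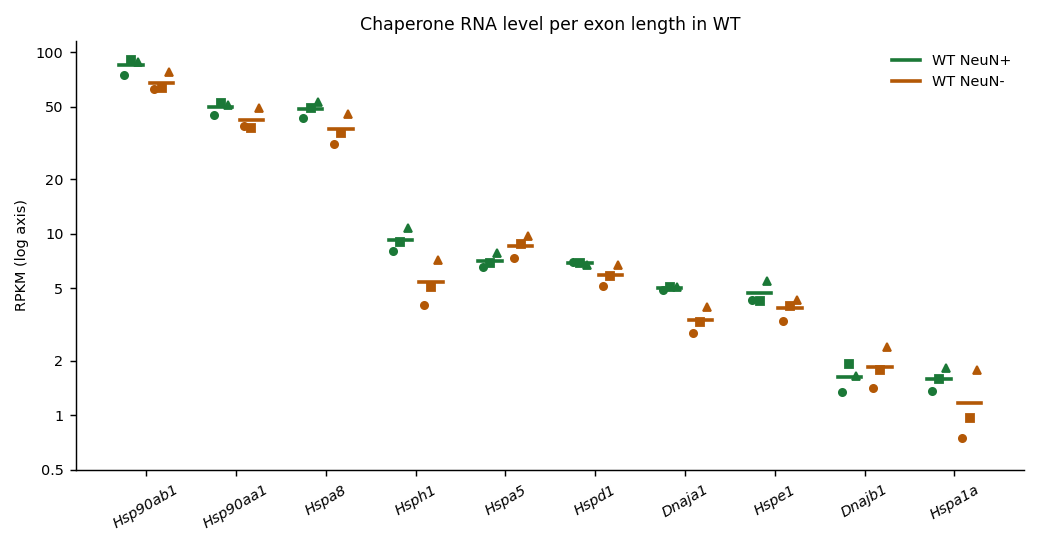
Level of the 10 chaperone RNAs in WT, in RPKM on a log axis, with 1 point per library (circle, square and triangle for replicates 1, 2 and 3) and a bar at the mean of NeuN+ (green) or NeuN- (brown). Hsp90ab1, Hsp90aa1 and Hspa8 lie above the other 7 genes in both cell types, and Dnajb1 and Hspa1a lie lowest.

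Between the cell types of WT, no member passed the test (edgeR quasi-likelihood test, Benjamini-Hochberg adjusted p under 0.05, with a log2 fold change beyond 1 in either direction), while 42.9% of 33523 genes did. DESeq2 also called 0, and 2 members had an unadjusted p under 0.05, as did 74.3% of all genes. The largest differences were those of Hsph1, 0.77 (SE 0.32, adjusted p = 0.0374), and Dnaja1, 0.59 (SE 0.18, adjusted p = 0.00524), both toward NeuN+ and below the limit on the fold. The median of the 10 log2 fold changes was 0.30, against -0.01 over all genes. With total counts in place of TMM scaling the 2 medians were 0.06 and -0.25, and both shifted toward NeuN-. Without WT NeuN- replicate 3, Hsph1 was called, at 1.02 (adjusted p = 0.0174).

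In NeuN+ nuclei labelled Ogg1-/-, both HSP90 genes fell. Hsp90aa1, the inducible cytosolic HSP90, was measured at 162.3, 191.6 and 187.8 CPM (counts scaled to the library total) in WT NeuN+ and at 138.9, 118.8 and 101.2 CPM in Ogg1-/- NeuN+. All 3 values of Ogg1-/- lay below the lowest of WT, and the fitted log2 fold change was -0.59 (SE 0.11, adjusted p = 0.0229), or 0.662 of WT. Hsp90ab1, the constitutive form, was measured at 204.5, 252.2 and 247.3 CPM in WT and at 178.9, 158.4 and 136.5 CPM in Ogg1-/-. Again the groups did not overlap, with a log2 fold change of -0.57 (SE 0.12, adjusted p = 0.0325). These were the 2 of 10 members called in this comparison, where a call needed an adjusted p under 0.05 with a log2 fold change beyond 0.5 in either direction, against 0.574% of 30132 genes. Both calls were lost without WT NeuN+ replicate 2 or 3 or without Ogg1-/- NeuN+ replicate 2 or 3, and over 13 alternative settings the log2 fold change of Hsp90aa1 lay between -0.72 and -0.49 and its adjusted p between 0.0000175 and 0.134. For Hsp90ab1 the ranges were -0.67 to -0.48 and 0.0000554 to 0.183.

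The other members of Ogg1-/- NeuN+ did not pass the test. Hspa1a was at 3.70, 4.33 and 5.03 CPM in WT and 3.42, 2.67 and 2.42 CPM in Ogg1-/-, without overlap, with a log2 fold change of -0.63 (SE 0.20, adjusted p = 0.17). Hspa8 had a log2 fold change of -0.39 (SE 0.16, adjusted p = 0.328), Hspe1 of -0.32 (SE 0.14), Hspd1 of -0.30 (SE 0.11) and Dnaja1 of -0.23 (SE 0.08). Hsph1 (-0.16), Dnajb1 (-0.02) and Hspa5 (0.04) were closer to 0. Over the members the median was -0.31, against 0.01 over all genes. In 6 of the 10 the groups did not overlap, all lower in Ogg1-/-, where 19.3% of genes had groups without overlap in either direction. Hspa1a was called as well, which made 3, with DESeq2, with edgeR without the low-count filter (adjusted p = 0.0264) and with edgeR on the 2 genotypes alone (adjusted p = 0.0214). DESeq2 called 241 genes in all in this comparison.

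In DKO NeuN+, 1 HSP90 gene passed the test. Hsp90aa1 was at 116.8, 124.8 and 121.3 CPM in DKO NeuN+, below every WT library, and fell by 0.58 on the log2 scale (SE 0.11, adjusted p = 0.0394). It was the 1 member called, against 0.302% of genes. Hsp90ab1 was at 158.4, 176.3 and 160.3 CPM, also below every WT library, with a log2 fold change of -0.51 (SE 0.12) and an adjusted p of 0.0823. With DESeq2 both were called, among 173 genes. Hspa8 (-0.34) and Hspd1 (-0.26) did not overlap WT either but did not pass the test, so that 4 of 10 members did not overlap, all lower, against 16.8% of genes. The median over the 10 was -0.20, against 0.00 over all genes. Leaving out any 1 of the 3 DKO or 3 WT libraries ended the call of Hsp90aa1, at adjusted p values from 0.0548 to 0.237, while its log2 fold change stayed between -0.65 and -0.52 over the 13 alternatives. Ogg1-/- and DKO were set against the same WT libraries, so their differences from WT are not independent of each other.

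**Figure D2:**
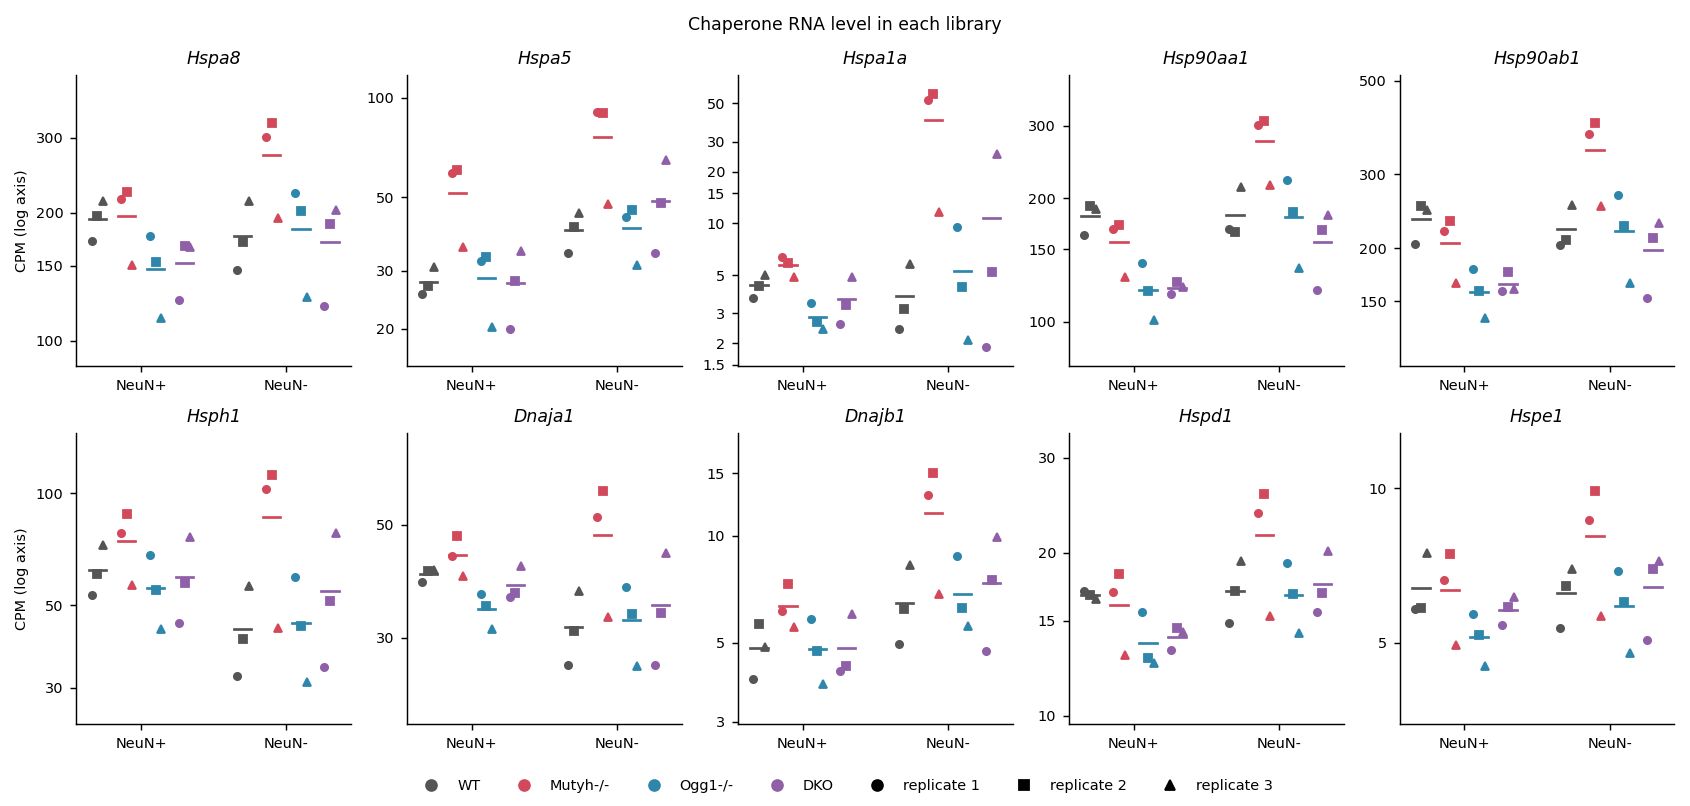
CPM of each chaperone in all 24 libraries on a log axis, with NeuN+ on the left and NeuN- on the right of each panel. Colours give the genotype, symbols the replicate number and bars the mean of 3 libraries. In NeuN+, Hsp90aa1 and Hsp90ab1 of Ogg1-/- and DKO lie below WT. In NeuN-, replicates 1 and 2 of Mutyh-/- lie above the other libraries for each gene, and replicate 3 does not.

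In Mutyh-/- NeuN+, no member was called by edgeR, against 0.428% of genes, and 2 members had an unadjusted p under 0.05, as did 18.7% of genes. DESeq2 called 398 genes, 1 of them a member. That 1 was Hspa5, the HSP70 of the endoplasmic reticulum. It was at 25.5, 26.9 and 30.8 CPM in WT and at 59.0, 60.4 and 35.4 CPM in Mutyh-/-, all above WT, with a log2 fold change of 0.89 (SE 0.22, adjusted p = 0.0678). Replicates 1 and 2 stood apart from replicate 3, and without Mutyh-/- NeuN+ replicate 3 the log2 fold change was 1.11 and Hspa5 was called (adjusted p = 0.00668). It was the 1 member of 10 whose groups did not overlap, where 21.1% of genes had such groups. Cytosolic members took both signs: Dnajb1 and Hspa1a each had a log2 fold change of 0.39, Hsp90aa1 of -0.21 and Hsp90ab1 of -0.19. The median over the 10 was 0.07, against -0.01 over all genes.

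In NeuN- of Mutyh-/-, all 10 fitted differences were positive, and none was called by edgeR, against 0.273% of 31863 genes. Of the 10, 8 had an unadjusted p under 0.05, where 13.7% of all genes did. DESeq2 called 219 genes, 1 of them a member, Hspa1a. The median was 0.63, against -0.01 over all genes. The inducible Hspa1a had the greatest difference. It was at 2.42, 3.16 and 5.78 CPM in WT NeuN- and at 52.4, 56.7 and 11.7 CPM in Mutyh-/- NeuN-. Every Mutyh-/- library exceeded every WT library, and replicate 3 lay closer to WT than to replicates 1 and 2 on this scale. The log2 fold change was 3.41 (SE 0.88, adjusted p = 0.163), or 10.6 times WT.

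The Mutyh-/- libraries were similarly uneven for the other members. Hspa5 was at 33.9, 40.6 and 44.8 CPM in WT and 90.3, 89.5 and 47.6 CPM in Mutyh-/-, with a log2 fold change of 0.93 (SE 0.26, adjusted p = 0.184). Hsph1 was at 32.2, 40.6 and 56.4 CPM in WT and 102.9, 112.1 and 43.5 CPM in Mutyh-/-, with a log2 fold change of 1.00 (SE 0.37, adjusted p = 0.276). For Hsph1 the third Mutyh-/- library lay within the range of WT. Hsp90aa1 was at 168.2, 165.2 and 212.3 CPM in WT and 301.7, 307.5 and 215.0 CPM in Mutyh-/-, with a log2 fold change of 0.60 (SE 0.20, adjusted p = 0.235). Dnajb1 (0.84), Hspa8 (0.63), Hsp90ab1 (0.62) and Dnaja1 (0.60) followed, and the mitochondrial pair Hspe1 (0.37) and Hspd1 (0.34) had the smallest differences. In 3 of 10 members, Hspa5, Hspa1a and Hsp90aa1, the groups did not overlap, against 19.2% of genes. Without Mutyh-/- NeuN- replicate 3, Hspa5 was called at a log2 fold change of 1.18 (adjusted p = 0.0251), and so was Hspa1a at 3.85 (adjusted p = 0.0394).

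In Ogg1-/- NeuN- and DKO NeuN-, no member was called by edgeR or DESeq2, and none had an unadjusted p under 0.05, where 11.8% and 12.4% of genes did. The share of genes called by edgeR was 0.229% and 0.116%, the median over the members 0.03 and 0.09, against 0.00 and 0.01 over all genes, and no member had groups without overlap, against 19.8% and 17% of genes. Hspa1a varied most within both groups. It was at 9.58, 4.25 and 2.09 CPM in Ogg1-/-, and at 1.91, 5.21 and 25.2 CPM in DKO, where replicate 3 was 13.2 times replicate 1. The log2 fold change of Hspa1a in DKO NeuN- was 1.49 (SE 0.86, adjusted p = 0.502) and was -0.13 without DKO NeuN- replicate 3. In Ogg1-/- NeuN- it was 0.50 (SE 0.87, adjusted p = 0.885) and was -0.25 without Ogg1-/- NeuN- replicate 1. The HSP90 pair, which fell in Ogg1-/- NeuN+, had log2 fold changes of -0.01 and -0.02 in Ogg1-/- NeuN-.

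**Figure D3:**
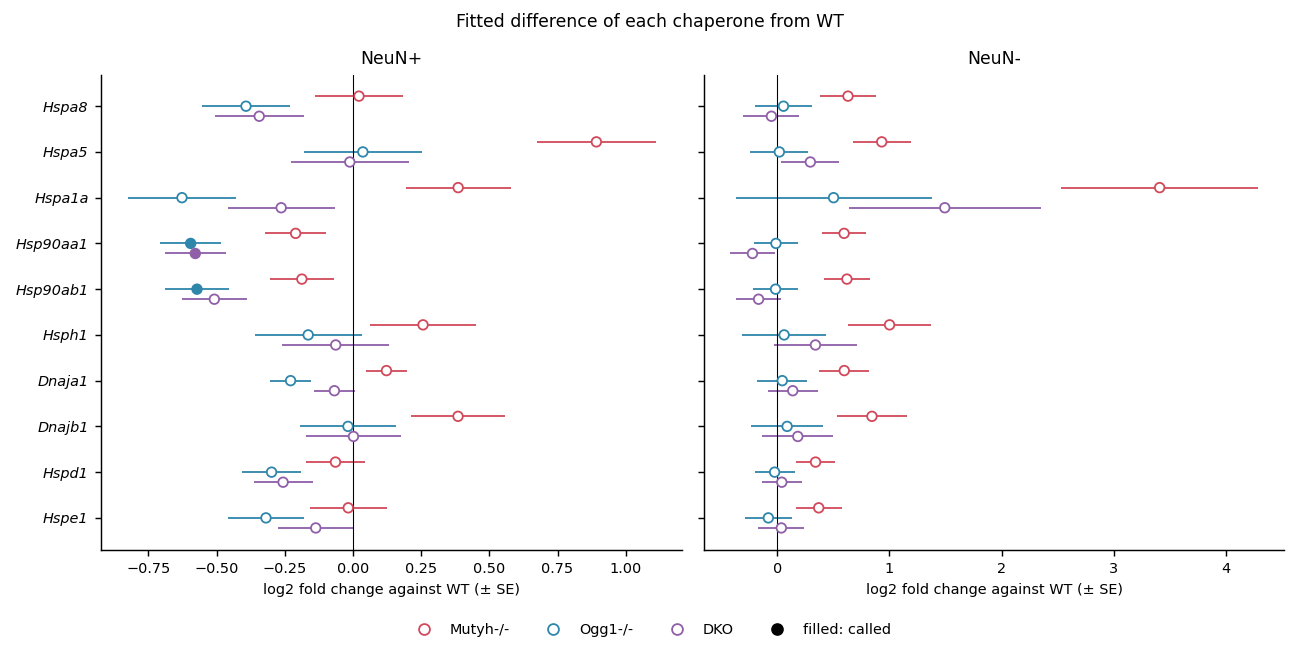
Log2 fold change against WT (horizontal axis, bars ± SE) of each chaperone in Mutyh-/-, Ogg1-/- and DKO, for NeuN+ on the left and NeuN- on the right, whose axes differ in length. Filled points passed the test: Hsp90aa1 and Hsp90ab1 in Ogg1-/- NeuN+ and Hsp90aa1 in DKO NeuN+. In Mutyh-/- NeuN- all 10 points lie right of 0 and Hspa1a lies at 3.41.

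Whether a knockout changed a member differently in neurons and glia was tested as an interaction. No member passed at an adjusted p under 0.05 for Mutyh-/-, Ogg1-/- or DKO with edgeR or DESeq2 in the fits without a replicate block, where edgeR called 0.0209%, 0.0537% and 0.0567% of genes. At an unadjusted p under 0.05 there were 3, 2 and 0 members, beside 8.58%, 7.09% and 9.4% of genes. For Mutyh-/- these were Hspa1a, with an effect in NeuN+ minus NeuN- of -3.04 (SE 0.94, adjusted p = 0.337), Hsp90ab1 (-0.82, SE 0.25, adjusted p = 0.337) and Hsp90aa1 (-0.82, SE 0.25, adjusted p = 0.33). For Ogg1-/- they were Hsp90aa1 (-0.57, SE 0.25, adjusted p = 0.652) and Hsp90ab1 (-0.55, SE 0.25, adjusted p = 0.682). With a replicate block on the number, 3 members (Hspa8, Hsp90aa1 and Hsp90ab1) passed for Mutyh-/-, where 31 of 33523 genes were called. No member passed with it for Ogg1-/- or DKO. The fall of HSP90 in Ogg1-/- NeuN+ was therefore not shown to differ from NeuN-.

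The knockouts were also compared with each other. In NeuN+, Hspa1a was lower in Ogg1-/- than in Mutyh-/- by a log2 fold change of -1.01 (SE 0.20, adjusted p = 0.0266). The Mutyh-/- libraries were at 6.36, 5.89 and 4.85 CPM and the Ogg1-/- libraries at 3.42, 2.67 and 2.42 CPM, without overlap. It was the 1 member called in that comparison, against 0.485% of genes. Its neighbour Hspa1b was called as well, at -1.05 (SE 0.20, adjusted p = 0.0185). The call of Hspa1a was lost without Mutyh-/- NeuN+ replicate 1 or 2 or without Ogg1-/- NeuN+ replicate 2 or 3, and over 12 alternatives its log2 fold change lay between -1.16 and -0.91 and its adjusted p between 0.0000404 and 0.161. Without Mutyh-/- NeuN+ replicate 3, 5 members were called (Hspa8, Hspa5, Hspa1a, Hsp90aa1 and Hsp90ab1). Dnaja1, a J-domain partner of HSP70, had a log2 fold change of -0.35 (adjusted p = 0.0469) there, below the limit on the fold, and all 10 fitted differences were negative, each at an unadjusted p under 0.05, where 12.7% of genes had one. In the other 5 comparisons edgeR called no member. For DKO against Mutyh-/- in NeuN+ 7 members and 6.86% of genes had an unadjusted p under 0.05, and 0.139% of genes were called. For DKO against Ogg1-/- in NeuN+ these were 1 member, 4.26% and 0.216%. In NeuN- they were 9 members, 11.5% and 0.521% for Ogg1-/- against Mutyh-/-, 5 members, 11% and 0.122% for DKO against Mutyh-/-, and 0 members, 4.34% and 0.132% for DKO against Ogg1-/-. DESeq2 called 1 member, Hspa1a, among 223 genes for Ogg1-/- against Mutyh-/- in NeuN+. It called 1, Hsp90aa1, among 146 genes for DKO against Mutyh-/- in NeuN-, and 0 members in the other 4. Hspa5 was called without Mutyh-/- replicate 3 for DKO against Mutyh-/- in NeuN+ and for Ogg1-/- against Mutyh-/- in NeuN-, and Hspa1a without DKO NeuN+ replicate 3 for DKO against Mutyh-/-.

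The levels of the 10 genes varied together from library to library. Each gene's log2 CPM was centred on its mean over the 12 libraries of a cell type, and the 10 were averaged. In NeuN- this mean was 0.87, 0.99 and -0.01 for Mutyh-/- replicates 1, 2 and 3, and 0.35, 0.44 and -0.05 in NeuN+. In WT it was -0.52, -0.30 and 0.04 in NeuN- and -0.05, 0.13 and 0.22 in NeuN+. For Ogg1-/- it was 0.14, -0.18 and -0.64 in NeuN- and 0.01, -0.20 and -0.47 in NeuN+, and for DKO -0.67, -0.10 and 0.37 in NeuN- and -0.33, -0.12 and 0.06 in NeuN+. In each of the 4 genotypes, ranking the replicate numbers by this mean gave the same order in NeuN+ and NeuN-. Pearson's r between members over the 12 libraries was positive for all 45 pairs, from 0.459 to 0.991 in NeuN+ and from 0.835 to 0.995 in NeuN-. The points of a pair share a library and its scaling. The highest r in both cell types was that of Hsp90aa1 with Hsp90ab1.

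**Figure D4:**
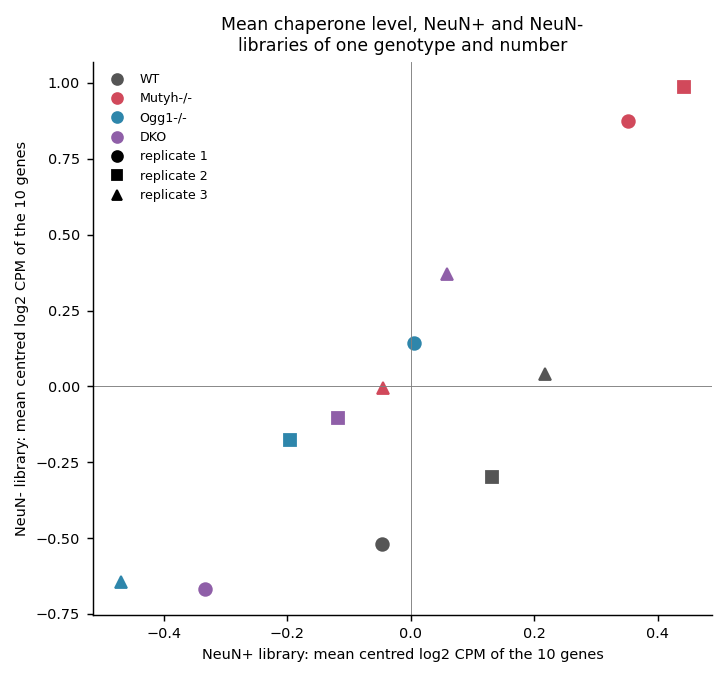
Mean centred log2 CPM of the 10 chaperones in the NeuN+ library (horizontal axis) and the NeuN- library (vertical axis) of the same genotype and replicate number, 12 points in all. Colours give the genotype and symbols the number. Mutyh-/- replicates 1 and 2 lie at the upper right (0.35 and 0.87, 0.44 and 0.99), and Ogg1-/- replicate 3 and DKO replicate 1 at the lower left.

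Single genes followed this order in most cases. The same replicate number held the highest level in NeuN+ and NeuN- in 30 of 40 cases of a member in a genotype, and all 3 replicates had the same order in 29 of 40. Over all genes tested in both, the number of the highest replicate was shared in 39.98% of cases. No such share was computed for the full order. By genotype the member cases of a shared highest replicate were 10 of 10 in Ogg1-/- (40.9% of all genes) and 8 of 10 in Mutyh-/- (41.8%). They were 6 of 10 in WT (35.8%) and in DKO (41.4%). Members are not independent, since their levels varied together. The labels give no link between NeuN+ and NeuN- libraries beyond the number.

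The spread between replicates was wider in NeuN- for every member. The biological coefficient of variation of Hspa1a was 66.8% in NeuN-, higher than in 99.4% of genes tested, and 16.2% in NeuN+. For Hsph1 it was 31.3% and 16.9%, and for Dnaja1, with the smallest value in NeuN+, 19.1% and 6.93%. The common value over all genes, as a fraction of the mean, was 0.124 in NeuN- and 0.0823 in NeuN+.

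Hspa1a has a neighbour, Hspa1b, at 9951 bases from it on the same strand, and the 2 transcripts share 1350 stretches of 100 bases, 47.1% of those of Hspa1a. The ratio of Hspa1a to Hspa1b counts ran from 0.823 to 1.11 over the 24 libraries, with a median of 0.989. In Mutyh-/- NeuN-, Hspa1b had a log2 fold change of 3.45 (SE 0.91, adjusted p = 0.17). How reads that match both genes were counted is not given in the sources used here, so the level of each of the pair is uncertain. The lowest Hspa1a count of a library was 122 and the highest 4492.

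Among genes outside the 10, those that followed their mean level most closely included co-chaperones. In NeuN- the 5 with the highest Pearson's r over 12 libraries were Ahsa1 (0.988), which activates the HSP90 ATPase, Stip1 (0.984), which links HSP70 to HSP90, Gm20481 (0.979), Hspa1b (0.978) and Ptges3 (0.974), the HSP90 co-chaperone p23. Gm20481 lies over Hspa1a on the opposite strand, and Hspa1b shares sequence with Hspa1a. Reads of Hspa1a, which is part of the mean, may therefore have been counted for both. In NeuN+ they were Fkbp4 (0.980), an HSP90 co-chaperone, Atp2a2 (0.976), the calcium pump of the endoplasmic reticulum, Cct7 (0.967), a subunit of the cytosolic chaperonin, Hist1h4n (0.966) and Gm17092 (0.959). These values describe shared library differences and carry no test.

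A wider set of 101 chaperone genes in 9 lists was read beside the members, of which 97 were tested in NeuN+ and 100 in NeuN-. None was called against WT by edgeR in any of the 6 comparisons. At an unadjusted p under 0.05 there were 21 higher and 10 lower in Mutyh-/- NeuN+, 0 and 28 in Ogg1-/- NeuN+, 1 and 16 in DKO NeuN+, 27 and 2 in Mutyh-/- NeuN-, 1 and 5 in Ogg1-/- NeuN-, and 0 and 6 in DKO NeuN-. In the same order 18.7%, 12.3%, 13.5%, 13.7%, 11.8% and 12.4% of all genes had such a p in either direction. DESeq2 called 7, 1, 0, 10, 0 and 0 of them in this order. It called 398, 241, 173, 219, 179 and 178 genes in all. Their medians lay between -0.07 and 0.05, beside -0.31 to 0.63 for the 10 members.

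For Hspa5, the related list holds genes of folding in the endoplasmic reticulum and of the unfolded protein response. In Mutyh-/- NeuN+ all 16 of its genes had positive differences, with a median of 0.48 and a range of 0.05 to 1.48, 11 had an unadjusted p under 0.05 (18.7% of all genes), and 5 did not overlap WT (21.1%). Pdia4, a disulfide isomerase, had a log2 fold change of 0.96 (SE 0.23, adjusted p = 0.0617). Xbp1, a transcription factor of the unfolded protein response, had 0.69 (SE 0.17, adjusted p = 0.069), and Pdia6, a disulfide isomerase, 0.77 (SE 0.19, adjusted p = 0.075). The replicates were uneven here too. The summed level of this list was 607.7, 621.3 and 469.5 CPM in Mutyh-/- NeuN+ replicates 1, 2 and 3. WT NeuN+ had 443.1, 450.0 and 482.8 CPM, so Mutyh-/- replicate 3 lay within the range of WT. In Mutyh-/- NeuN- 14 of 16 were positive, with a median of 0.37 and 9 at an unadjusted p under 0.05 (13.7% of all genes). There 8 lay above WT and 1 below it without overlap, where 19.2% of all genes had groups without overlap. Sdf2l1, a partner of BiP, had 0.94 (SE 0.22, adjusted p = 0.122) and Xbp1 0.71 (SE 0.19, adjusted p = 0.17) there. In Ogg1-/- and DKO the medians of this list lay between 0.00 and 0.08.

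In Ogg1-/- NeuN+, the genes of the cytosolic chaperonin TRiC and its partner prefoldin had negative differences in 14 of 14 cases, with a median of -0.22. Of the 14, 9 had an unadjusted p under 0.05 (12.3% of all genes), and 8 did not overlap WT (19.3%). In this comparison Cct2, a TRiC subunit, had a log2 fold change of -0.35 (SE 0.08, adjusted p = 0.0397). Bag5, an HSP70 exchange factor, had -0.47 (SE 0.10, adjusted p = 0.0322), and Hspa9, the mitochondrial HSP70, had -0.33 (SE 0.07, adjusted p = 0.034). These 3 had an adjusted p under 0.05 but lay below the limit on the fold. In DKO NeuN+ 13 of the 14 TRiC and prefoldin genes were negative, with a median of -0.18. In NeuN- the smallest p values on the lower side were those of Cdc37, which brings kinases to HSP90, in DKO (-0.23, SE 0.06, adjusted p = 0.204), Bag1, an exchange factor, in Ogg1-/- (-0.19, SE 0.06, adjusted p = 0.26) and Hsbp1, a binding partner of HSF1, in DKO (-0.26, SE 0.10, adjusted p = 0.318). The other HSP90 family members and co-chaperones had a median of 0.34 in Mutyh-/- NeuN-, with 12 of 14 positive, and small heat shock proteins one of 0.38, with 6 of 7 positive. From lowest to highest, the Mutyh-/- NeuN- libraries summed to 497.8, 695.5 and 701.8 CPM for this HSP90 list. For small heat shock proteins they summed to 76.2, 101.1 and 114.2 CPM. WT NeuN- had 465.7 to 534.3 and 68.7 to 81.8 CPM, so the lowest Mutyh-/- library lay within WT for both lists. Other HSP70 genes had a median of -0.19 in Ogg1-/- NeuN+, with 9 of 11 negative. Between WT cell types 18 of the 100 wider genes were called, against 42.9% of all genes. Of the 18, 5 were toward NeuN+ and 13 toward NeuN-. Small heat shock proteins made up 5 of the 13, with a list median of -2.13.

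**Figure D5:**
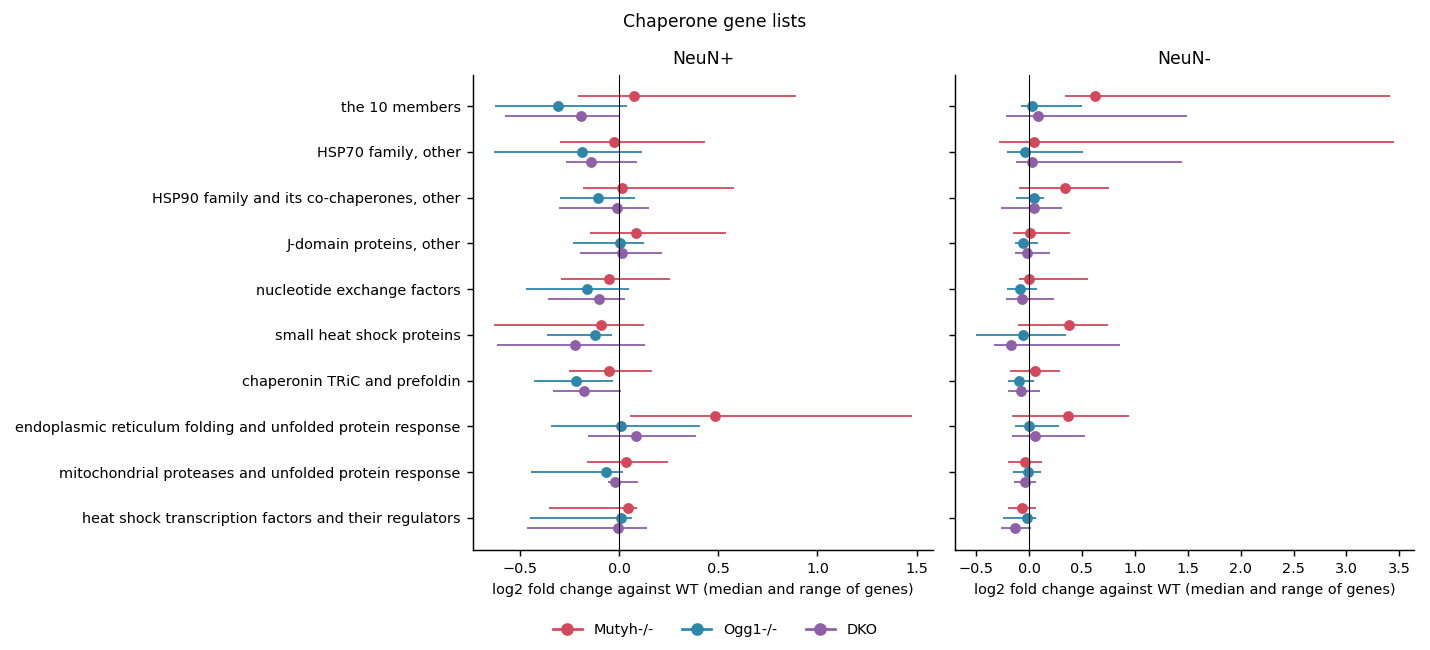
Median (point) and range (line) of the log2 fold changes against WT over the genes of each chaperone list, for Mutyh-/-, Ogg1-/- and DKO, in NeuN+ on the left and NeuN- on the right, whose axes differ in length. The endoplasmic reticulum list of Mutyh-/- lies right of 0 in NeuN+ (median 0.48), and the 10 members of Mutyh-/- lie right of 0 in NeuN- (median 0.63).

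Other groups of RNA were read in the same libraries. Cytosolic ribosomal protein genes, 76 in number, had medians of -0.18, -0.34 and -0.28 in Mutyh-/-, Ogg1-/- and DKO NeuN+, where 66, 75 and 75 of the fitted differences were negative, and of -0.14, -0.21 and -0.20 in NeuN-. In Ogg1-/- NeuN+ edgeR called 3 of them, all lower. Immediate early genes, 16 tested, had medians of 0.09, -0.12 and -0.05 in NeuN+ and 0.12, -0.17 and 0.06 in NeuN-, with 0 called. The part of these genes in the members' differences was not tested. The summed level of 8 neuronal markers was 5402 to 5823 CPM in Ogg1-/- NeuN+, 5594 to 5917 CPM in DKO NeuN+, 5611 to 6251 CPM in Mutyh-/- NeuN+ and 5275 to 5537 CPM in WT NeuN+, so none of the knockout ranges reached below that of WT. In NeuN-, the summed level of 5 choroid plexus markers was 25.4 to 31.0 CPM in Mutyh-/-, 42.3 to 70.6 CPM in WT, 15.9 to 109.7 CPM in Ogg1-/- and 14.2 to 249.97 CPM in DKO. Oligodendrocyte markers summed to 5983 to 7370 CPM in Mutyh-/- NeuN- and 6491 to 7239 CPM in WT NeuN-, astrocyte markers to 3060 to 4046 and 3027 to 3595 CPM, and microglial markers to 556.0 to 619.5 and 533.9 to 628.1 CPM. The last 3 pairs of ranges overlapped, and those of choroid plexus did not. Their part in the members' levels of Mutyh-/- NeuN- was not tested.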

How the data were processed

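Counts per gene, as deposited by the authors in 1 table for NeuN+ and 1 for NeuN-, were used without change. Per the labels, the submitters' processing notes name FastQC 0.11.9, HISAT2 2.1.0, SAMtools 1.10, featureCounts, R 4.3.2 and edgeR 3.42.4, with build GRCm38. Settings for strand and for reads that match several genes are not given in the sources used here.

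The 10 members, the wider lists and the tests were chosen with earlier results of these data known. NeuN+, NeuN- and all 24 libraries were fitted separately with edgeR 4.0.16 (R 4.3.3; filterByExpr, TMM, glmQLFit, glmQLFTest, Benjamini-Hochberg adjustment over all genes tested), and CPM and RPKM used the TMM-scaled totals and the union of exons. A call required an adjusted p below 0.05, together with a log2 fold change beyond 0.5 (genotypes) or 1 (cell types) in either direction. Interactions required the adjusted p alone. Wider genes were named when called against WT or among the 3 with the smallest p in each direction and cell type. The fit was tested on simulated data in which genes varied independently and had the same spread. That spread was smaller than each member's own in NeuN-, so the simulation does not show how the fit handles the members there. DESeq2 1.42.0, other scalings and filters, a replicate block and leave-outs were run as alternatives, those for knockouts against each other after the data had been seen. Mitochondrially encoded genes were not analysed here.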

Additional observations from a re-analysis of the deposited data

How the results depend on the processing

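Leaving out each library in turn gave 0 to 1 called members for Mutyh-/- against WT in NeuN+, 0 to 2 for Ogg1-/- in NeuN+, 0 in every case for DKO in NeuN+, 0 to 2 for Mutyh-/- in NeuN-, and 0 to 1 between WT NeuN+ and WT NeuN-. Members called rose from 0 to 1 for Mutyh-/- in NeuN+ with DESeq2, without the low-count filter and with the 2 genotypes fitted alone, from 1 to 2 for DKO in NeuN+ with DESeq2, with total counts, with the replicate block and with the 2 genotypes alone, and from 0 to 1 for Mutyh-/- in NeuN- with DESeq2 and with the 2 genotypes alone. Between WT cell types 2 members passed without a limit on the fold, and total counts moved the members' median from 0.30 to 0.065 with that of all genes at -0.25. For knockouts against each other, alternatives chosen after seeing the data gave 0 to 5 called members without 1 library for Ogg1-/- against Mutyh-/- in NeuN+ (1 as reported) and 2 without the low-count filter or without a limit on the fold. DKO against Mutyh-/- in NeuN+ had 0 to 1 without 1 library and 1 without the low-count filter, Ogg1-/- against Mutyh-/- in NeuN- had 0 to 1 without 1 library, and DKO against Mutyh-/- in NeuN- had 1 with DESeq2. The cause of these changes was not tested, except that leave-outs have fewer samples. Genes called over all settings ran from 62 to 837 for Mutyh-/- (129 as reported), 70 to 308 for Ogg1-/- (173) and 36 to 252 for DKO (91) in NeuN+, from 31 to 435 (87), 50 to 179 (73) and 10 to 178 (37) in NeuN-, and from 8615 to 15397 (14371) between WT cell types. For the interactions they ran from 2 to 95 (7), 12 to 65 (18) and 7 to 206 (19). For knockouts against each other (Ogg1-/- and DKO against Mutyh-/-, then DKO against Ogg1-/-) they ran from 96 to 521 (146), 36 to 93 (42) and 52 to 96 (65) in NeuN+ and from 66 to 342 (166), 4 to 146 (39) and 30 to 67 (42) in NeuN-.

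With total counts, 54.8% of the calls of Mutyh-/- NeuN+ were higher, against 69.0% with TMM, and 58.3% of those of the DKO interaction, against 68.4%. For DKO against Mutyh-/- in NeuN- they were 38.7% and 23.1%. DESeq2 gave 53.4% there, 41.8% for DKO against Ogg1-/- in NeuN- (21.4% with edgeR), 44% in the Mutyh-/- interaction (57.1%) and 82.5% in the DKO interaction. Of 1620 member values under alternatives, none that was called changed sign, and 84 uncalled values did.

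Replicate numbers were checked for pairing. Deviations from the group mean correlated at 0.011 to 0.292 between NeuN+ and NeuN- of the same number, above 0.1 in 6 of 12 pairs, and knockout and WT numbers showed no such relation (means of -0.018 and -0.004). The labels do not link libraries of a number, and the limit of 0.1 in every pair, set for taking numbers as pairs, was met in DKO alone. Of the 12 NeuN+ libraries, 11 correlated best with their own number in NeuN-, which is a hint from the data and not from the design. With NeuN+ and NeuN- of a number as a replicate block, 3 members (Hspa8, Hsp90aa1 and Hsp90ab1) were called for the Mutyh-/- interaction, among 31 genes. Without it 0 members were called, among 7 genes. In fits within a cell type the block joined libraries of a number across genotypes, where no such relation was seen. Of the member counts there, it changed that of DKO NeuN+ alone. No other member count changed with a block.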
